A study of Mus musculus with 6 samples.

Results

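The TAM receptor genes Mertk, Axl and Tyro3, the bridging ligand genes Gas6, Pros1 and Mfge8, and the alpha-v integrin subunit genes Itgav, Itgb3 and Itgb5 were followed in RNA-seq of sorted uterine neutrophils. These 9 genes were chosen by name, with earlier results of these data known. Their rows were found by Ensembl ID among 43432 gene IDs. All of them passed the filter on low counts that left 12908 genes for testing, each with counts in both groups. The mice were of the C57BL/6 strain and carried Cre at the progesterone receptor locus together with a floxed gene, which is deleted in cells that express that receptor. Both groups carried these alleles, so no control without the deletion entered the comparison. The 3 normoxia libraries came from mice kept in ambient air, and the 3 hyperoxia libraries from mice kept at 60% oxygen for 10 days, from postnatal day 18 to 28. All mice were 4 weeks old, and cells that were CD45+, CD11b+ and high for Ly6G were sorted from whole digested uteri.

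Efferocytosis is the removal of dying cells by phagocytes. A dying cell shows phosphatidylserine on its surface, soluble bridging proteins bind that lipid, and receptors on the phagocyte bind the bridge. Gas6 and protein S (encoded by Pros1) bridge to the TAM receptor tyrosine kinases, whereas MFG-E8 (encoded by Mfge8) bridges to the integrins alpha-v beta-3 and alpha-v beta-5. Neutrophils are best known in this pathway as the cells that are eaten, and macrophages as the cells that eat. TAM signalling is also known for damping inflammatory cytokine responses in myeloid cells.

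Libraries held 38683293 to 61715617 gene counts. Levels are given as CPM, counts per 1000000 of the library size after TMM scaling, and a floor of 3 counts corresponded to 0.0470 to 0.0771 CPM. The neutrophil genes Csf3r, at 1316.6 to 2204.9 CPM, and Ly6g, at 38.9 to 351.2 CPM, were present in each library. Ly6g was lowest in hyperoxia replicate 3 and highest in hyperoxia replicate 2. The 10 neutrophil markers summed to 59943.4, 41251.4 and 48721.2 CPM in normoxia. In hyperoxia they summed to 69417.4, 108328.8 and 41024.2 CPM, and DESeq2 called 0 of them. Macrophage, dendritic cell, endothelial and stromal markers were present too and were higher on average in hyperoxia, and their values are given after the ligand genes. Hyperoxia replicate 2, also the deepest library, stood apart from the others, with a chi-square per degree of freedom of 472.7 to 726.5 in pairs that held it and of at most 221.3 in the rest, and it had the highest level of Pros1, Mfge8, Itgb3 and Itgb5. Without it, the edgeR log2 differences were 1.83 for Axl, 1.17 for Itgb5, 2.68 for Gas6, 2.03 for Pros1 and 1.21 for Mfge8. They were 1.42 for Mertk, 1.73 for Tyro3, 0.63 for Itgav and -0.92 for Itgb3. DESeq2 then called Axl and Itgb5 and no other of the 9 genes. In such bulk samples, fewer cells of a type and less RNA per cell cannot be told apart. The labels do not state whether each library came from its own animal, and p-values therefore reflect only library-to-library spread, part of which may be technical.

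Axl and Itgb5 had the lowest p values of the 9 genes, and in both genes the hyperoxia libraries all exceeded the normoxia libraries. Mertk, Pros1, Mfge8 and Itgav had groups that did not overlap either, whereas Tyro3, Gas6 and Itgb3 overlapped. The median log2 difference of the 9 genes, hyperoxia minus normoxia, was 1.41, beside 0.04 over all genes tested. It was above 0 for 8 of the 9, beside 53.7% of all genes. Groups did not overlap with hyperoxia higher for 6 of the 9, a pattern seen in 9.57% of all genes tested. In edgeR's quasi-likelihood test, Benjamini-Hochberg adjusted across the genes tested, 0 of the 9 passed an adjusted p of 0.05, as did 0 of all genes tested (0%). At an unadjusted p under 0.05, edgeR counted 5 of the 9 as higher, beside 9.1% of all genes, and 0 as lower, beside 3.91%. DESeq2 called 5 of the 9 higher (Axl, Gas6, Pros1, Mfge8 and Itgb5), beside 3.57% of all genes, and limma-voom called 0, as it did of all genes (0%). When the libraries were left out in turn, edgeR called 1 of the 9, Itgb5, and that only without hyperoxia replicate 1, where 1.21% of all genes were called higher (0% in each of its other such fits). DESeq2 without normoxia replicate 1, 2 or 3 called 1.68%, 1.41% and 3.05% of all genes higher, against 2, 3 and 3 of the 9 members. Without hyperoxia replicate 1, 2 or 3 it called 6.19%, 3.05% and 3.01%, against 5, 2 and 3 members.

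**Figure D1:**
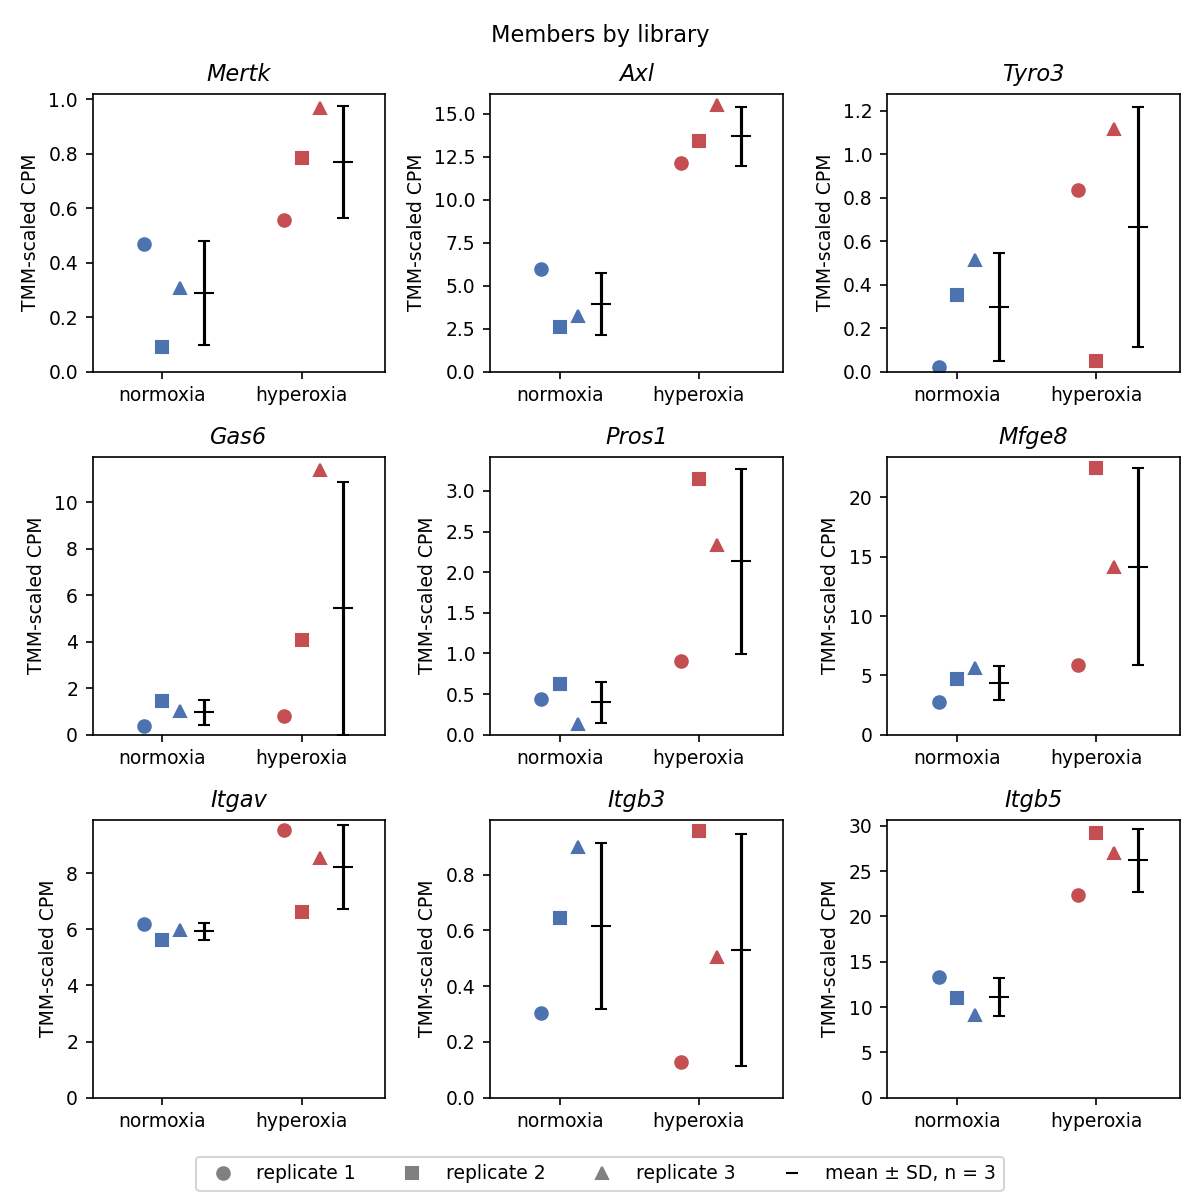
TMM-scaled CPM (vertical axes, linear) of each of the 9 genes in the 3 normoxia (blue) and 3 hyperoxia (red) libraries; symbols mark the replicate, and the black bar gives the mean ± SD (n = 3). Axl lies at 2.62 to 5.97 CPM in normoxia and at 12.1 to 15.5 CPM in hyperoxia, while the Gas6 groups overlap.

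**Figure D2:**
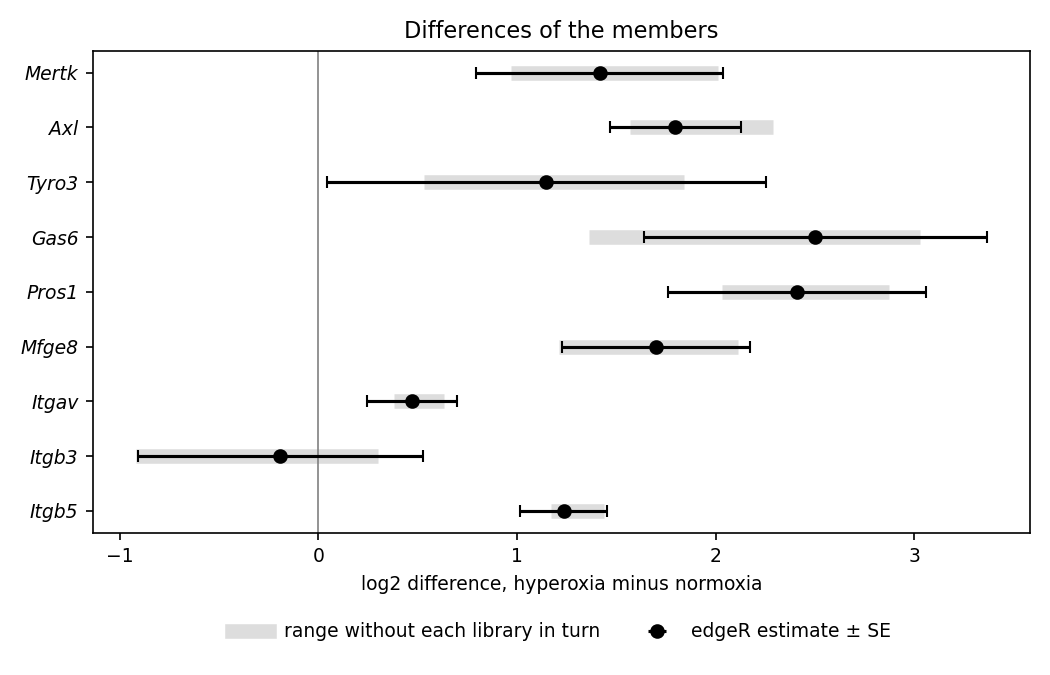
Log2 difference, hyperoxia minus normoxia (horizontal axis), of each gene from edgeR, as a point ± SE; grey bars span the estimates with each library left out in turn. Itgb3 is the gene whose grey bar crosses 0, from -0.92 to 0.30.

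Among the receptors, Axl, a receptor tyrosine kinase induced in activated macrophages and dendritic cells and also made by stromal and vascular cells, measured 5.97, 2.62 and 3.21 CPM in normoxia and 12.1, 13.4 and 15.5 CPM in hyperoxia. The lowest hyperoxia library was above the highest normoxia library. Means were 3.93 ± 1.79 CPM in normoxia and 13.7 ± 1.71 CPM in hyperoxia (SD, n = 3 each). This was a 3.48-fold difference, or 1.80 ± 0.33 (SE) on the log2 scale. The adjusted p was 0.106 in edgeR and 0.000104 in DESeq2. Leaving out each library in turn gave log2 differences of 1.57 to 2.29 in edgeR, and DESeq2 called Axl in 6 of 6 such fits. Without the filter on low counts, edgeR called Axl too, with an adjusted p of 0.00824, in a fit that called 0.886% of all genes higher. The gene (ENSMUSG00000002602) lies on the minus strand of chromosome 7, 25757273 to 25788705 in GRCm38.

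Mertk, the TAM receptor best known for the uptake of dying cells by resident macrophages, was scarce, with 20, 4 and 12 counts in normoxia and 22, 50 and 46 in hyperoxia. Those counts corresponded to 0.468, 0.0887 and 0.3084 CPM and to 0.557, 0.784 and 0.9687 CPM, so the groups did not overlap, by a narrow margin. In edgeR the difference was 1.41 ± 0.62 (log2, SE), adjusted p 0.385, and neither edgeR nor DESeq2 called it with all libraries or with any one left out. It was 0.97 without normoxia replicate 2 and 2.01 without normoxia replicate 1.

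Tyro3, the TAM receptor most abundant in brain, split within both groups. Normoxia libraries held 1, 16 and 20 counts and hyperoxia libraries 33, 3 and 53. Normoxia replicate 1 and hyperoxia replicate 2 were at or below the floor, and the 4 other libraries were above it. The log2 difference was 1.15 ± 1.10 (SE), with an adjusted p of 0.709 in edgeR. It ranged from 0.53 without hyperoxia replicate 3 to 1.84 without normoxia replicate 3.

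Expressed per kilobase of merged exons, Axl made up 80.6% to 93.4% of the summed TAM receptor level in each of the 6 libraries. Mertk made up 3.4% to 9.0% and Tyro3 0.3% to 10.5%. Axl's share was 91.4%, 87.0% and 80.6% in normoxia and 90.1%, 93.4% and 88.4% in hyperoxia, so the groups overlapped in it.

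Of the 9 genes, the bridging ligand genes Gas6 and Pros1 had the largest differences on the log2 scale. The 3 ligand genes had the widest ratios between hyperoxia libraries among the genes DESeq2 called. Gas6, a vitamin K-dependent ligand of all TAM receptors, stood at 0.375, 1.46 and 1.03 CPM in normoxia and at 0.810, 4.08 and 11.4 CPM in hyperoxia. Hyperoxia replicate 1 fell among the normoxia libraries, while replicate 3 was 14.1 times as high as replicate 1. The log2 difference was 2.50 ± 0.86 (SE), with edgeR giving an adjusted p of 0.2885 and DESeq2 0.0230. Without hyperoxia replicate 3 the edgeR difference was 1.36, and without hyperoxia replicate 1 it was 3.03. With 1 library left out, DESeq2 called Gas6 in 1 of 6 fits, the one without hyperoxia replicate 1, and missed it without any of the others, with adjusted p between 0.000183 and 0.355 over the 6 fits. Gas6 (ENSMUSG00000031451) lies on chromosome 8, 13465374 to 13494490, and shares 34 exon bases with Tmem255b on the opposite strand, which had 0 to 45 counts.

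Pros1, which encodes protein S, an anticoagulant cofactor and a ligand of Mertk and Tyro3, stood at 0.445, 0.621 and 0.1285 CPM in normoxia and at 0.911, 3.15 and 2.34 CPM in hyperoxia. The groups did not overlap, and hyperoxia replicate 1 was the nearest to normoxia. The log2 difference was 2.41 ± 0.65 (SE), with edgeR giving an adjusted p of 0.1885 and DESeq2 0.00706. DESeq2 called Pros1 in 2 of 6 fits with a library left out, those without normoxia replicate 2 and without hyperoxia replicate 1, and its adjusted p reached 0.0946 in the others, which left out normoxia replicate 1 or 3 or hyperoxia replicate 2 or 3.

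Mfge8, which encodes a secreted protein with a phosphatidylserine-binding end and an integrin-binding end, stood at 2.79, 4.68 and 5.63 CPM in normoxia and at 5.90, 22.5 and 14.1 CPM in hyperoxia. Hyperoxia replicate 1 was barely above normoxia replicate 3, and on library totals without TMM scaling, where 8.1% of all genes had non-overlapping groups with hyperoxia higher, the groups overlapped. The log2 difference was 1.70 ± 0.47 (SE), with edgeR giving an adjusted p of 0.205 and DESeq2 0.0120. DESeq2 called it in 3 of 6 fits with a library left out and missed it without normoxia replicate 1 or 2 or hyperoxia replicate 2, with adjusted p of up to 0.184. Mfge8 was 57.8% to 73.4% of the summed ligand level per kilobase in normoxia. In hyperoxia its share was 69.9%, 66.9% and 37.4%, and Gas6 held 55.5% in hyperoxia replicate 3. These shares depend on the length used, because Mfge8 has 4694 bases of merged exons but a longest transcript of 2330 bases. Gas6 has 2548 bases by either length. Per kilobase of longest transcript, Mfge8 and not Gas6 had the higher level in hyperoxia replicate 3.

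Markers of several cell types also differed from library to library. Stromal and fibroblast markers summed to 22.9, 20.99 and 59.4 CPM in normoxia and to 40.2, 211.6 and 249.8 CPM in hyperoxia, so hyperoxia replicate 1 fell within the normoxia range, as it did for Gas6. DESeq2 called 6 of the 9 stromal markers tested as higher, and Pdgfra had at most 19 counts in a library. Endothelial markers summed to 9.93, 11.9 and 15.9 CPM in normoxia and to 28.2, 67.0 and 46.5 CPM in hyperoxia, with 6 of 9 called higher by DESeq2 and the cadherin gene Cdh5 at 3, 0 and 11 counts in normoxia. Macrophage markers summed to 1632.0, 1514.5 and 1493.4 CPM in normoxia and to 2059.2, 2973.1 and 3102.1 CPM in hyperoxia, with 8 of 13 called higher. Csf1r, Cd68, Fcgr1, Adgre1 and Mrc1 were not called, and the log2 differences of Csf1r and Cd68 were -0.005 and 0.062. Apoe had the highest level of this list in hyperoxia, at 834.4 to 1654.9 CPM, against 521.4 to 587.1 CPM in normoxia. The macrophage receptor Cd163, which was filtered out, had 0, 1 and 0 counts in normoxia and 5, 2 and 26 in hyperoxia. Dendritic cell markers summed to 299.5 to 321.7 CPM in normoxia and to 467.4 to 1320.6 CPM in hyperoxia, with 3 of 7 called higher. Those 3 were H2-Aa, Cd74 and Cd209a, whereas Flt3, Zbtb46, Xcr1 and Ccr7 were not called and Clec9a was filtered out. Most of the sum was Cd74, at 257.9 to 273.5 CPM in normoxia and 401.6 to 1095.7 CPM in hyperoxia. Epithelial markers overlapped between groups, at 95.6 to 207.6 CPM in normoxia and 14.5 to 263.9 CPM in hyperoxia, with 0 of 8 called. The part of these cell types in the values of the 9 genes, Itgb5 included, was not tested.

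**Figure D3:**
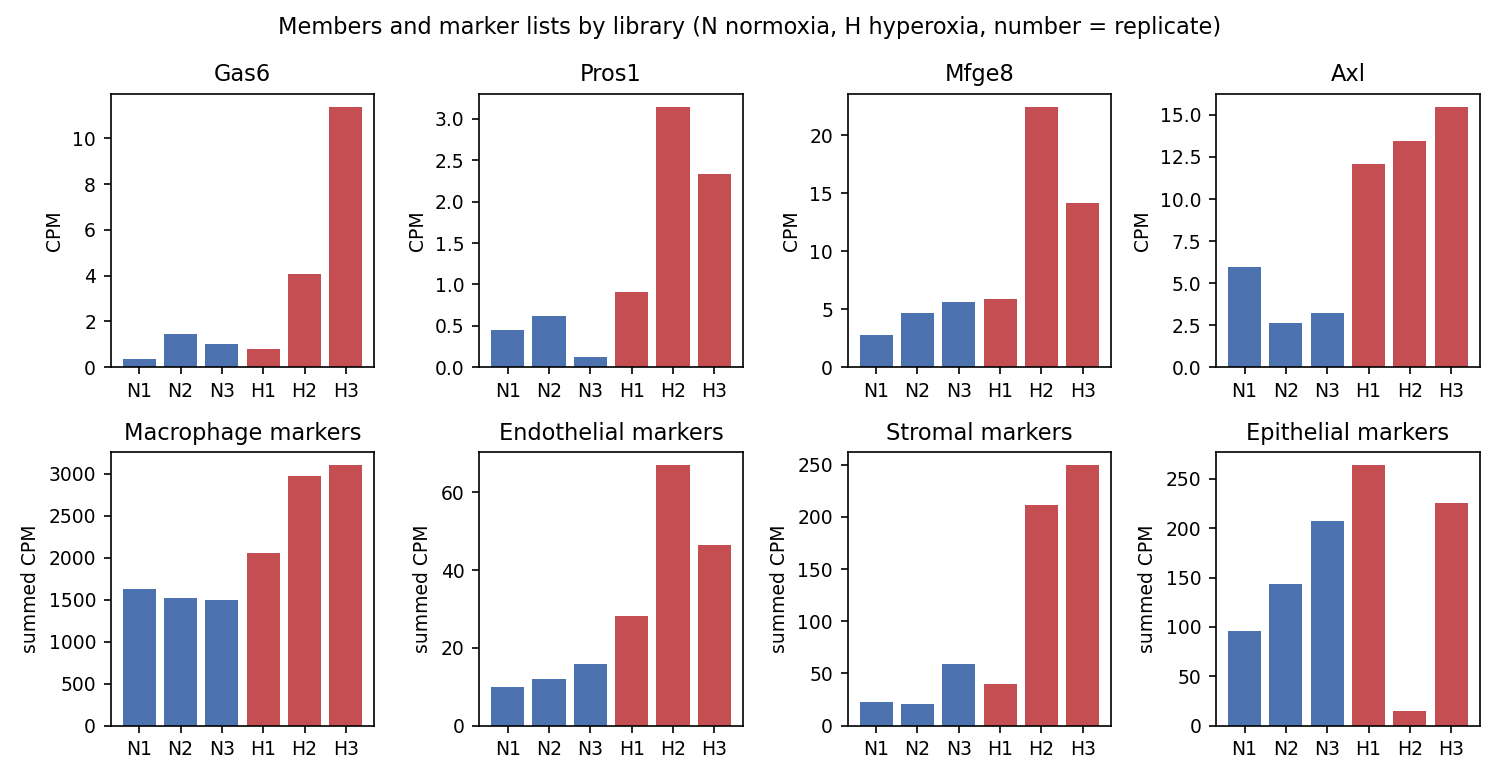
CPM of Gas6, Pros1, Mfge8 and Axl (upper row) and summed CPM of 4 marker lists (lower row) in each library, on linear axes that start at 0; N and H are normoxia and hyperoxia, numbered by replicate. Hyperoxia replicate 1 is the lowest hyperoxia library for the 4 genes and for the macrophage, endothelial and stromal lists, and Axl is at 12.1 CPM there. For the epithelial list it is the highest library, at 263.9 CPM, and hyperoxia replicate 2 is the lowest, at 14.5 CPM.

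Among the integrin subunits, Itgb5, the beta-5 chain that pairs with alpha-v, was the most abundant of the 9 genes. It stood at 13.3, 10.98 and 9.12 CPM in normoxia and at 22.4, 29.2 and 27.0 CPM in hyperoxia. The groups were separated by more than the spread within either. Means were 11.1 ± 2.08 and 26.2 ± 3.46 CPM (SD, n = 3 each). This was 2.35-fold, or 1.24 ± 0.22 (SE) on the log2 scale. The adjusted p was 0.106 in edgeR and 0.000302 in DESeq2, which called Itgb5 in 6 of 6 fits with a library left out. edgeR called it without hyperoxia replicate 1, with an adjusted p of 0.0465, and without the filter on low counts, with 0.0173. The gene (ENSMUSG00000022817) lies on the plus strand of chromosome 16, 33829665 to 33949338.

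Itgav, the alpha-v chain, stood at 6.18, 5.61 and 5.99 CPM in normoxia and at 9.54, 6.61 and 8.53 CPM in hyperoxia. The groups did not overlap, but the difference of 0.47 ± 0.23 (log2, SE) had an adjusted p of 0.4215 in edgeR and 0.438 in DESeq2. Itgav shares 634 exon bases (5.9% of its merged exons) with Gm13684 on the opposite strand, which had 8 to 43 counts against 233 to 422 for Itgav.

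Itgb3, the beta-3 chain that pairs with alpha-v and, in platelets, with Itga2b, was scarce and overlapped between groups. It stood at 0.304, 0.643 and 0.900 CPM in normoxia and at 0.1265, 0.956 and 0.505 CPM in hyperoxia, which gave a difference of -0.19 ± 0.72 (log2, SE) and an adjusted p of 0.939 in edgeR. The sign turned to 0.23 without normoxia replicate 3 and to 0.30 without hyperoxia replicate 1. Platelet markers summed to 2.20 to 9.16 CPM in normoxia and 2.53 to 9.31 CPM in hyperoxia, and Gp6 had 0 counts in each library. Per kilobase, Itgb5 made up 78.3% to 91.4% of the summed level of the 3 subunits and Itgb3 0.3% to 4.7%.

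Ordered by mean level per kilobase of merged exons in normoxia, Itgb5 came first at 3.13 ± 0.58 CPM per kilobase, followed by Mfge8 (0.930), Axl (0.7815), Itgav (0.552), Gas6 (0.375), Itgb3 (0.104), Pros1 (0.0974), Mertk (0.0665) and Tyro3 (0.0480). Itgb5 was clear of Mfge8 in all libraries, and each other neighbouring pair had overlapping library values. In hyperoxia Itgb5 again came first, at 7.37 ± 0.97, then Mfge8 at 3.02 ± 1.76, Axl at 2.72 ± 0.34 and Gas6 at 2.13 ± 2.13 (SD, n = 3 each). Itgav (0.766) and Pros1 (0.522) came next, and Mertk (0.1775), Tyro3 (0.107) and Itgb3 (0.0897) had the lowest levels. Here too only the step from Itgb5 to Mfge8 had no overlap between libraries, which held in hyperoxia for merged exons but not for the longest transcript.

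**Figure D4:**
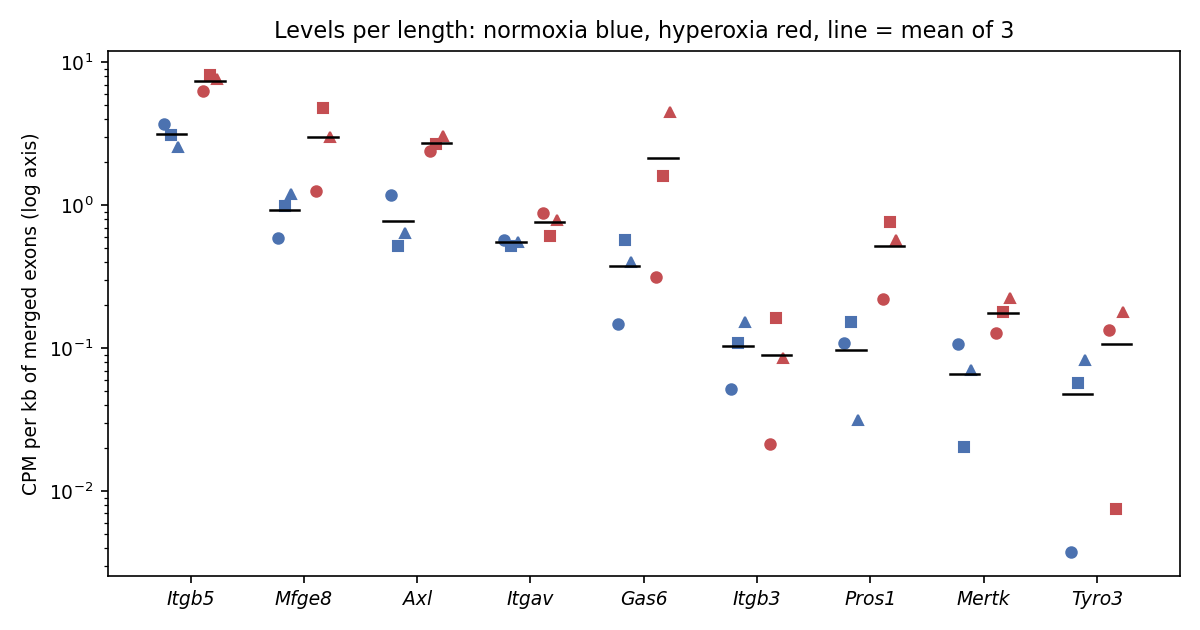
CPM per kilobase of merged exons (vertical log axis) of each gene in the 3 normoxia (blue) and 3 hyperoxia (red) libraries, with the mean as a line; genes are ordered by their normoxia mean, and circles, squares and triangles are replicates 1, 2 and 3. Itgb5 is the highest gene in both groups by its mean, and the lowest points are the Tyro3 values of normoxia replicate 1 and hyperoxia replicate 2.

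The promoters of Axl and Itgb5 are shown because these genes had the lowest p values. RefSeq's table for GRCm38.p6 matched 8 of the 9 genes (all but Itgb3), and the 250 bases before the listed start were searched on both strands for the GC box GGGCGG, which binds Sp1-type factors, the AP-1 site TGANTCA, and the hypoxia response cores ACGTG and GCGTG. Capitals mark GC boxes, and both sequences read 5′ to 3′ along the gene's strand. The Axl window is chr7:25788734-25788983, minus strand, with 60.0% G and C, and the Itgb5 window is chr16:33829415-33829664, plus strand, with 65.2%.
Axl: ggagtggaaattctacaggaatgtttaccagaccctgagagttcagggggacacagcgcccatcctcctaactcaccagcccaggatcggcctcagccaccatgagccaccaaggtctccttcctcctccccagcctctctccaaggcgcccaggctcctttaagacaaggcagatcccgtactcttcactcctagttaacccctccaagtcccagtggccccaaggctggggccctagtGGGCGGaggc
Itgb5: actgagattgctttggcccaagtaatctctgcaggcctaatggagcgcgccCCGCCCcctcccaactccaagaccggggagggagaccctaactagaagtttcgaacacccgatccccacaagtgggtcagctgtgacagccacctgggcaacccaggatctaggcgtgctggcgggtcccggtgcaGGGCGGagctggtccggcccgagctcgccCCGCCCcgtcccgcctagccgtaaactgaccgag
Axl held 1 GC box and Itgb5 held 3. Of the 8 member promoters, 7 held at least 1 GC box, beside 32.7% of all 32851 windows of this length and 56% of the 12319 windows of genes tested here. ACGTG was found in 0 of the 8, beside 16.6% of all windows and 21.5% of those of tested genes. GCGTG was found in 3 (Tyro3, Mfge8 and Itgb5), beside 28.2% and 43.5%, and TGANTCA in 0, beside 6.75% and 4.82%. Matches of ACGTG and GCGTG can share bases. A match describes letters in these windows and is not a measured binding site.

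Genes with the most similar profile were sought by the root mean square distance between log2 CPM values, each gene centred on its own mean over the 6 libraries, among 5167 genes (predicted and clone-named genes left out) whose average log2 CPM was 3 or more. Nearest to Axl were Tmem119 (distance 0.29 log2 units), Aif1 (0.36) and Nt5dc2 (0.36), where Axl itself lay 1.005 from its mean. Mertk was nearest to Axl (0.41), followed by Aif1 (0.43) and Miip (0.46). Nearest to Gas6 were Dcn (0.56), Serpinh1 (0.60) and Fcrls (0.61), to Pros1 Pld4 (0.47), Pltp (0.53) and Ms4a6c (0.59), and to Mfge8 Tsc22d1 (0.32), Cd48 (0.39) and S100a10 (0.40). Itgb5 lay closest to Got1 (0.15), Lgals3bp (0.16) and Tcf4 (0.19), and Itgav to Bex3 (0.085), Rnf19b (0.12) and Il1f9 (0.12). The nearest gene to Itgb3 was Klhl6 (0.44), and the nearest to Tyro3 was Cxcl5 (0.85). These distances are to be read beside each gene's own distance from its mean. That was 0.28 for Itgav, 0.65 for Itgb5, 0.89 for Itgb3, 0.96 for Mertk and 1.003 for Mfge8. It was 1.41 for Pros1 and 1.57 for both Gas6 and Tyro3.

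Of 92 other genes of the pathway, 81 were tested and had a median log2 difference of 0.12. edgeR called 0 of them, whereas 16 were higher and 3 lower with p under 0.05 before adjustment, beside 9.1% and 3.91% of all genes. DESeq2 called 9 higher and 1 lower, beside 3.57% and 0.403%. These calls fell in other receptors of dying cells, in transcription factors, and on Fn1 and Socs1, and 0 of the 14 engulfment genes, 0 of the 14 phagosome genes, 0 of the 10 exposure and find-me genes and 0 of the 4 don't-eat-me genes tested were among them.

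Other receptors of phosphatidylserine or dying cells had a median of 0.32 over 11 genes tested, with 4 called higher by DESeq2 (Stab1, Trem2, Cd36 and Scarf1). Trem2, a lipid-sensing receptor of macrophages, stood at 4.66, 5.125 and 4.68 CPM in normoxia and 9.39, 14.1 and 19.9 CPM in hyperoxia. Stab1, which encodes the scavenger receptor stabilin-1 of macrophages and endothelium, stood at 4.635, 4.13 and 4.73 CPM against 10.1, 8.98 and 10.8 CPM. The groups of both genes did not overlap, and both had an adjusted p of 0.106 in edgeR. Timd4, a phosphatidylserine receptor of resident macrophages, was filtered out, with 1, 3 and 0 counts in normoxia and 3, 9 and 55 in hyperoxia.

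Nuclear receptors and other factors of the efferocytic programme, a list that includes the enzyme gene Tgm2, had a median of 0.68 over 10 genes. DESeq2 called 4 of the 10 higher. Klf4, which encodes a zinc finger transcription factor, stood at 3.96, 3.88 and 4.215 CPM in normoxia and 7.415, 14.4 and 11.2 CPM in hyperoxia, with groups that did not overlap and an adjusted p of 0.115 in edgeR. Pparg and Maf were also among those called. The liver X receptor gene Nr1h3 had a log2 difference of 1.03 ± 0.41 (SE), with adjusted p of 0.349 in edgeR and 0.196 in DESeq2.

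TAM partners had a median of -0.12 over 13 genes, with 0 called higher and 1 lower by DESeq2. That gene was Socs1, a cytokine signalling inhibitor known to be induced downstream of TAM receptors, at 74.05, 65.4 and 93.75 CPM in normoxia and 39.6, 31.5 and 29.5 CPM in hyperoxia, with adjusted p of 0.106 in edgeR. Its direction was opposite to that of Axl, and the groups did not overlap. Ggcx, the carboxylase that activates Gas6 and protein S, had a log2 difference of 1.61 ± 0.45 (SE) at levels of at most 1.05 CPM, with adjusted p of 0.207 in edgeR. The sheddase gene Adam17, whose product cleaves Mertk, had a log2 difference of -0.14 ± 0.27 (SE).

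Of the other alpha-v partners and ligands, 5 of 8 were tested, with a median of 0.53. Fn1, which encodes the matrix ligand fibronectin, stood at 2.46, 2.64 and 2.93 CPM in normoxia and 7.39, 9.59 and 6.84 CPM in hyperoxia, and DESeq2 called it higher (adjusted p of 3e-05), where edgeR gave 0.0974. Itgb1, the beta-1 chain and another partner of alpha-v, had groups that did not overlap with hyperoxia lower, a pattern of 10.3% of all genes tested. Its log2 difference was -0.48 ± 0.23 (SE), with an adjusted p of 0.414 in edgeR, in the opposite direction to Itgb5.

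Engulfment genes had a median of 0.03 over 14 tested. The adaptor gene Crkl had a log2 difference of -0.62 ± 0.24 (SE) and Dock1, an exchange factor for Rac, 1.73 ± 0.57, with adjusted p of 0.329 and 0.274 in edgeR. Phagosome and LC3 genes had a median of -0.03 over 14, where Atg16l1 (-0.36 ± 0.22) and Atg7 (0.24 ± 0.24) had the lowest p values, with adjusted p of 0.530 and 0.722 in edgeR. Among exposure and find-me genes, the channel gene Panx1 had a log2 difference of 1.12 ± 0.35 (SE) and Anxa1 0.99 ± 0.59, with adjusted p of 0.252 and 0.517 in edgeR. Of the don't-eat-me genes, Pecam1, also an endothelial marker, differed by 0.61 ± 0.25 and Sirpa by 0.12 ± 0.25, with adjusted p of 0.3605 and 0.882 in edgeR.

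**Figure D5:**
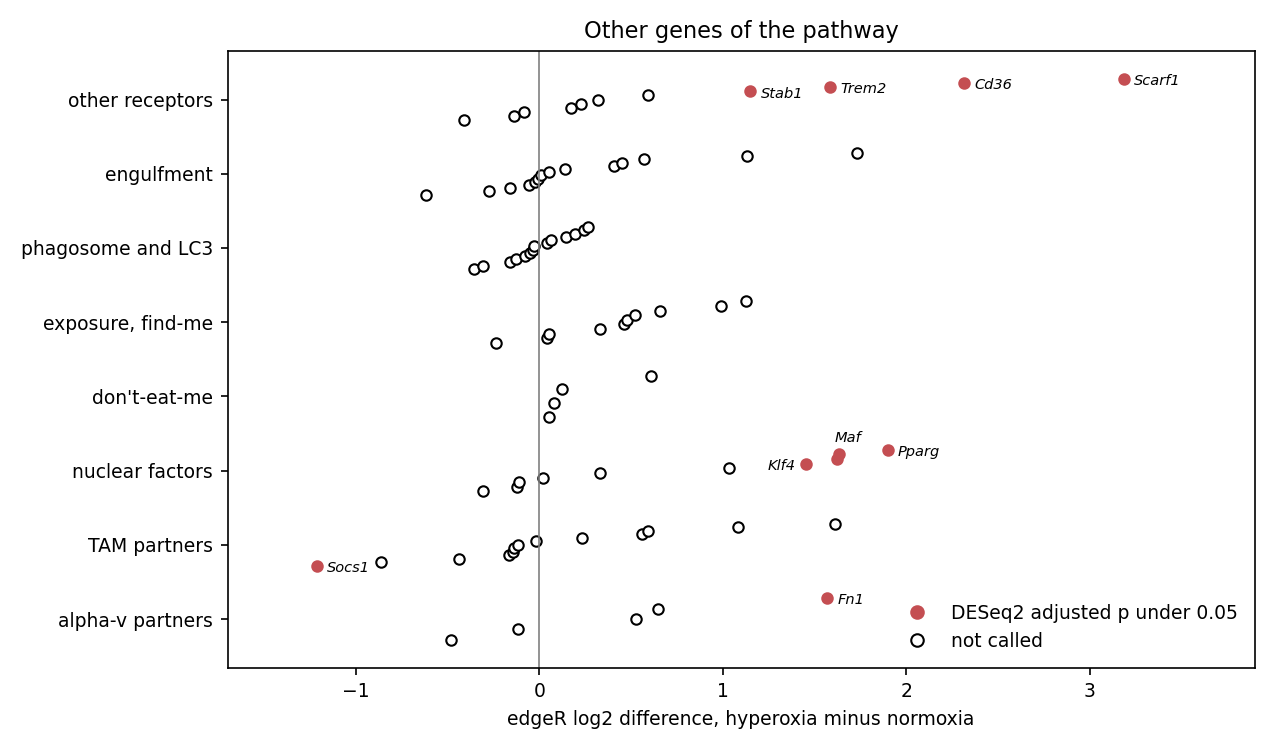
edgeR log2 difference, hyperoxia minus normoxia (horizontal axis), of the 81 tested pathway genes, grouped by list; filled red points are genes with a DESeq2 adjusted p under 0.05, and open points are the rest. Names are given for 9 of the called genes. Filled points to the right of 0 are in the receptor, nuclear factor and alpha-v partner lists, and the filled point to the left is Socs1.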

How the data were processed

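For each of 6 RNA-seq libraries, made with an Ovation/NexteraXT kit, the authors deposited unnormalized whole-number counts per Ensembl gene ID. The submitters' processing notes list STAR 2.4.2a, DESeq2 1.16.1 and the build GRCm38. How reads were counted, with which strand setting and annotation release, is not given in the sources used here, so reads of genes overlapping on opposite strands cannot be told apart. Symbols, positions and merged exon lengths came from GENCODE M21 (42548 of 43432 IDs matched). Totals of 38683293 to 61715617 counts set the counting precision, and the floors cover counting error only. The SD and SE values also hold the spread between libraries. All pairs of libraries differed by more than counting error (chi-square per degree of freedom of 472.7 to 726.5 for pairs with hyperoxia replicate 2, and of 29.8 to 221.3 for the rest).

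edgeR 4.0.16 (filterByExpr defaults, TMM, robust quasi-likelihood F test, two-sided) in R 4.3.3 compared the groups, with standard errors taken from the F statistic. Alternatives were DESeq2 1.42.0, limma-voom (limma 3.58.1), other scaling and filters, a threshold of 0.1, and leaving out each library, which was also done in DESeq2 after the data were seen. The procedure was tested on simulated data. Named genes were the 9 members, the 2 tested genes with the lowest p of each pathway list, and the 3 nearest profiles of each member. Further genes (Cd36, Scarf1, Pparg, Maf, Nr1h3, Adam17, Timd4 and single markers) were chosen after their values were seen. Log2 CPM for profiles used a prior count of 2. The members and lists were chosen with earlier results of these data known. Replicate numbers follow the order of deposition. Some items are not reported here.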

Additional observations from a re-analysis of the deposited data

How the results depend on the processing

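Over all genes, edgeR's count of 0 became 30 at a threshold of 0.1, 214 without a filter on low counts and 513 in DESeq2. It ran from 0 to 176 when each library was left out in turn, and in DESeq2 it was 245, 196 and 420 without normoxia replicate 1, 2 or 3 and 1112, 469 and 567 without hyperoxia replicate 1, 2 or 3. Of the 9 members, DESeq2 called 5, edgeR without a filter called 2 (Axl and Itgb5), and the fits without 1 library called 0 to 1 in edgeR and 2, 3 or 5 in DESeq2. For the pathway genes DESeq2 called 10. With limma-voom, RLE scaling, library totals or a minimum mean count of 10, the counts over all genes and over the members were 0. The cause of these differences was not tested. The direction of each member was the same in all alternatives except for Itgb3, which ranged from -0.92 to 0.30 in edgeR and from -0.96 to 0.25 in DESeq2 with a library left out (0.23 and 0.16 without normoxia replicate 3, 0.30 and 0.25 without hyperoxia replicate 1). With the longest transcript in place of merged exons, 2 members changed place in the order of levels, Itgb3 and Pros1 in normoxia. The hyperoxia means of Itgb5 and Mfge8 were then 7.98 and 6.08 CPM per kilobase, and their library values overlapped. Mfge8 was above Itgb5 in hyperoxia replicate 2 by that length. No paired analysis was possible because the labels give no replicate numbers. Depth limits Mertk, Tyro3, Pros1 and Itgb3, with 36, 37, 52 and 77 counts over the normoxia libraries.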
